A study of Homo sapiens with 12 samples.

Results

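Cells of the human melanoma line A375 with an induced short hairpin RNA (shRNA) numbered 33 were set against A375 cells with an induced shRNA numbered 31, both hairpins being directed at the kinase MELK. The comparison used 6 of the 12 arrays of the series, chosen by their titles: 3 from the line with hairpin 33 and 3 from the line with hairpin 31, all given doxycycline for 3 days. The 6 arrays given vehicle for 3 days, 3 from the hairpin 33 line and 3 from the hairpin 31 line, served to show how far the lines stood apart without induction. All 4 groups were grown in the same medium, and all 12 arrays came from cells that carried an inducible MELK hairpin. Each line carried 1 hairpin, and the labels do not say whether a line was 1 clone or a pool. A non-targeting hairpin and cells without a hairpin were not analysed here. Since both sides had received doxycycline, an effect of the drug that was equal in both lines does not appear in this comparison.

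MELK is a serine/threonine kinase of dividing cells, where it accompanies mitosis. A375 is a melanoma line in wide use for work on BRAF-driven growth. In an inducible system, doxycycline turns on transcription of the hairpin, which the cell trims into a short duplex. One strand of that duplex is loaded onto an Argonaute protein and directs it to transcripts with matching sequence, which are then cut or destabilised. Hairpins against the same gene carry different guide strands, so they share the intended target, while transcripts bound by a short partial match can differ between them. Comparing hairpins with each other is therefore a common check in knockdown work.

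The unit of measurement was the probe row of the deposited intensity table, read as the brightness of beads that carry 1 probe. A row entered the comparison when its detection p-value, the authors' measure of how a row stands against negative controls, was under 0.05 on 3 or more of the 6 doxycycline arrays. This left 20137 of 48107 rows. Values below are background-corrected, quantile-normalized log2 intensities, and a difference is the mean with induced hairpin 33 minus the mean with induced hairpin 31, unless another pair is named. A row was called different at an adjusted p under 0.05 from limma over all 20137 rows. The labels do not say whether replicates came from separate cultures. The p-values therefore speak for the spread among these arrays alone, and that spread may be technical.

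Mean intensity was 283.1, 309.9 and 298.9 units on the hairpin 33 doxycycline arrays, against 234.4, 328.4 and 289.2 units on the hairpin 31 doxycycline arrays. The dimmest array, replicate 1 of hairpin 31, lay below all the others, and the groups overlapped. The difference of 13.31 units did not pass an exact permutation test (two-sided, p = 0.8, n = 3 each, smallest possible p 0.1). Rows detected per array numbered 19640 to 20903 with hairpin 33 and 19624 to 20499 with hairpin 31. Their means, 20191 ± 647 and 20130 ± 453 (SD, n = 3 each), differed by less than the spread (exact permutation test, two-sided, p = 0.9). The arrays of both hairpins alternated along 1 chip. By the letters of the array names, the vehicle arrays held positions A to F and the doxycycline arrays G to L. Treatment and position on the chip therefore cannot be told apart.

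The deposited row identifiers did not follow the intensities, so rows are named by identifier alone and no difference is assigned to a gene. Levels on the 6 doxycycline arrays were compared between rows that share a label. For 6691 symbols held by several rows, the first and next row correlated at r = -0.0127, and for 5698 accessions at r = -0.011. Between pairs detected on all 6 arrays, 1276 in number, r was 0.000213. In contrast, the mean levels of the same row with hairpin 33 and with hairpin 31 correlated at 0.9965 over all 48107 rows. The difference between hairpins was unrelated too, with r = 0.000663 over 1867 symbols with a pair of tested rows. These correlations run across rows, which are not independent replicates. By label, rows of ribosomal proteins, abundant products of any growing cell, were detected on 3 or more of the 6 arrays in 34 of 115 cases (29.6%). Rows labelled as olfactory receptors, silent in most cells, were detected in 183 of 437 cases (41.9%). By the same rule 20137 of all 48107 rows were detected, so the olfactory labels were detected about as often as rows at large. The melanocyte markers (MITF, PMEL, MLANA, TYR, TYRP1, DCT, SOX10 and S100B) labelled 9 rows, of which 3 were detected on 3 or more arrays and 3 on none. These labels therefore tell nothing about the identity of the cells.

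The targeted gene could not be read for the same reason. Of the rows deposited under MELK, ILMN_1731184 was detected on 0 of 3 arrays with hairpin 33 and 0 of 3 with hairpin 31. ILMN_2212909 was at 5.23, 4.93 and 5.38 with hairpin 33, against 5.25, 5.26 and 5.15 with hairpin 31. The groups overlapped, and the difference of -0.04 (95% interval -0.29 to 0.21, limma adjusted p = 0.916) did not pass the threshold. This says nothing about MELK itself while labels and levels are unrelated, and the depth of knockdown in either line was not tested.

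Cells with induced hairpin 33 and cells with induced hairpin 31 differed in intensity in a minority of rows, in both directions. Hairpin and line went together, so effects of the hairpin, its strength of induction, the line and the culture cannot be told apart here. Of 20137 rows, 627 (3.11%) were called, 338 (1.68%) higher with hairpin 33 and 289 (1.44%) lower. At an unadjusted p under 0.05 the count was 3419 rows (17%). In 3936 rows (19.5%) the 3 arrays of one hairpin lay wholly above the 3 of the other, 1990 higher with hairpin 33 and 1946 lower, and all 627 called rows were among these. With 3 against 3 arrays, a row without a difference separates in this way with probability 0.1. Between the vehicle groups 2077 rows (10.3%) did so. The count of calls rested on both normalization and replicates. Centring each array on its median in place of quantile normalization left 107 rows, 94 higher and 13 lower, so the near balance of directions depended on the normalization. Fitting the 6 doxycycline arrays alone left 243 rows, 142 higher and 101 lower. Leaving out the dimmest array gave 360, and leaving out replicate 2 or 3 of hairpin 33 gave 394 and 332. Without replicate 2 or 3 of hairpin 31 the counts were 403 and 395.

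Most of the called differences were small. Their absolute size ran from a log2 of 0.345 to 2.04, with a median of 0.543 and the middle portion between 0.474 and 0.654. A size of at least 1.5-fold was reached by 250 called rows, 151 higher and 99 lower with hairpin 33. A size of at least 2-fold was reached by 28 (0.139%), and here the directions were unequal, at 23 higher and 5 lower. Over all tested rows the median difference was -0.000516, the median absolute difference 0.123 and the 99th percentile of the absolute difference 0.623. With median centring 30 rows reached 2-fold, 28 higher and 2 lower, and without background correction, in the authors' value table, 8 did, 6 higher and 2 lower. Over rows detected on all 6 doxycycline arrays, 23 reached 2-fold, 18 higher and 5 lower, so the rows lost were all on the higher side. The 2-fold count stayed between 28 and 34 whichever array was left out.

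**Figure D1:**
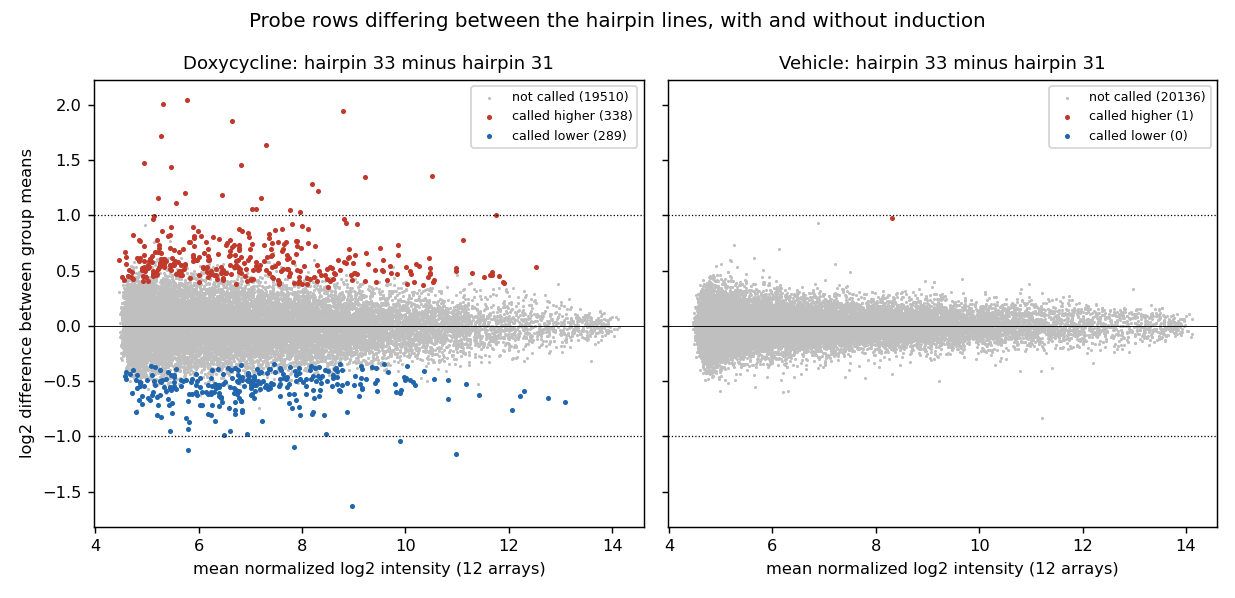
Difference between the hairpin lines (log2, vertical) for each of 20137 probe rows against the row's mean normalized log2 intensity over 12 arrays (horizontal), with doxycycline on the left and vehicle on the right; colours mark rows called by limma and dotted lines mark 2-fold. The left panel holds 627 called rows reaching log2 2.04, and the right panel 1.

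The share of rows called changed with brightness. In the dimmest of 4 equal classes of rows by mean level, 62 of 5034 rows (1.23%) were called, 39 higher and 23 lower with hairpin 33. In the next class 175 (3.48%) were called, in the third 239 (4.75%), and in the brightest 151 of 5035 (3%). The median standard error fell along the same classes, at 0.14, 0.133, 0.116 and 0.104. Sizes among called rows did not follow that order, with medians of 0.539, 0.588, 0.54 and 0.501. Of the 28 rows at 2-fold, 1 lay in the dimmest class, 8 in the next, 11 in the third and 8 in the brightest.

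The highest and lowest rows were chosen from called rows whose arrays did not overlap between induced hairpins. Several of the rows highest with hairpin 33 were dim with hairpin 31. ILMN_1763746 was at 7.27, 7.14 and 6.91 with hairpin 33, against 4.65, 5.43 and 5.11 with hairpin 31. In unnormalized units this was 211.6, 232.4 and 200.2, against 95.2, 129.9 and 111.6, where the hairpin 31 values lay close to background and 2 of 3 arrays detected the row. Every hairpin 33 array thus lay far above every hairpin 31 array, and the difference was 2.04 (SE 0.16, limma adjusted p = 5.40e-06). ILMN_1745593 stood at 7.07, 6.68 and 6.69 with hairpin 33, against 4.61, 4.96 and 4.84 with hairpin 31, and its difference was 2.01 (SE 0.12, limma adjusted p = 3.50e-07). Of the hairpin 31 arrays, 2 of 3 detected it. ILMN_1705648 read 6.77, 6.46 and 6.54 with hairpin 33, against 4.63, 4.96 and 5.04 with hairpin 31, again with 2 of 3 hairpin 31 arrays above background, and differed by 1.71 (SE 0.15). Sizes of such dim rows depend on how background is removed. In the authors' value table, which keeps the background, these differences were 0.93, 0.83 and 0.69.

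Bright rows gave large differences that depended less on the background. ILMN_1708428 was at 9.61, 9.71 and 10.15 with hairpin 33, against 7.83, 7.91 and 7.91 with hairpin 31. Its unnormalized intensities were 754.2, 969.9 and 1187.4 units, against 220.2, 360.9 and 297.7 units. The arrays did not overlap on either scale, and the log2 difference was 1.94 (95% interval 1.68 to 2.20, limma adjusted p = 3.50e-07), or 1.64 in the authors' value table. ILMN_1801940 was brighter still, at 3088, 3224 and 2947 units with hairpin 33, against 813.7, 1461.6 and 1273.8 units with hairpin 31. After normalization its values were 11.69, 11.57 and 11.51 with hairpin 33, against 10.15, 10.23 and 10.34 with hairpin 31. The difference was 1.35 (SE 0.10, limma adjusted p = 2.71e-06), close to the 1.30 of the authors' value table. ILMN_1715902 followed the same course, at 10.28, 10.01 and 10.25 with hairpin 33, against 8.90, 8.89 and 8.72 with hairpin 31, a difference of 1.35 (SE 0.11).

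The other 4 of the 10 highest rows were of middling to low level. ILMN_2172588 had the smallest standard error of them, at 8.30, 8.29 and 8.32 with hairpin 33, against 6.63, 6.65 and 6.72 with hairpin 31, and the lowest adjusted p of the 20 rows named here (difference 1.64, SE 0.09, limma adjusted p = 2.52e-07). ILMN_1741079 differed by 1.85 (SE 0.11) and ILMN_1755658 by 1.46 (SE 0.12), against 1.07 and 0.94 in the authors' value table. ILMN_1736180 had the largest standard error, at 6.93, 6.49 and 6.02 with hairpin 33, against 4.98, 5.09 and 5.06 with hairpin 31, and differed by 1.44 (SE 0.17, limma adjusted p = 0.000175). It was as dim as the rows above, and the authors' value table gave 0.59.

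Rows lower with hairpin 33 were fewer at large size. ILMN_3277715 had the largest fall, at 7.84, 7.97 and 7.72 with hairpin 33, against 9.65, 9.30 and 9.47 with hairpin 31. Unnormalized, it gave 275.5, 348.1 and 288.9 units, against 600.7, 810.4 and 723.7 units. All hairpin 33 arrays were below all hairpin 31 arrays, with a difference of -1.63 (SE 0.12, limma adjusted p = 2.71e-06). ILMN_1669362 was at 10.29, 10.24 and 10.68 with hairpin 33, against 11.70, 11.65 and 11.34 with hairpin 31, a difference of -1.16 (SE 0.13, limma adjusted p = 0.000132). ILMN_1719194 was at 5.32, 5.49 and 5.34, against 6.59, 6.66 and 6.26, a difference of -1.12 (SE 0.12). It was dim, and the authors' value table gave -0.49.

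A further pair of rows fell by more than 2-fold with narrow spread. ILMN_1803060 was at 6.90, 6.92 and 6.86 with hairpin 33, against 7.98, 8.08 and 7.91 with hairpin 31, and differed by -1.10 (SE 0.10, limma adjusted p = 1.08e-05). ILMN_1659316 was at 9.08, 9.05 and 9.03, against 10.19, 10.08 and 10.03, and differed by -1.04 (SE 0.09, limma adjusted p = 7.85e-06). The other 5 of the 10 lowest rows, ILMN_3235239, ILMN_2415128, ILMN_1811765, ILMN_1725992 and ILMN_1664006, lay just short of 2-fold, between -0.95 and -0.98. In the authors' value table ILMN_2415128 was at -0.76, and the dimmer ILMN_3235239, ILMN_1811765, ILMN_1725992 and ILMN_1664006 were at -0.47, -0.55, -0.47 and -0.31. Of the 20 rows, ILMN_1811765 missed the threshold under median centring (difference -0.86, limma adjusted p = 0.0519). The other 19, which like it were chosen for their size, passed it under every alternative in which they were tested.

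**Figure D2:**
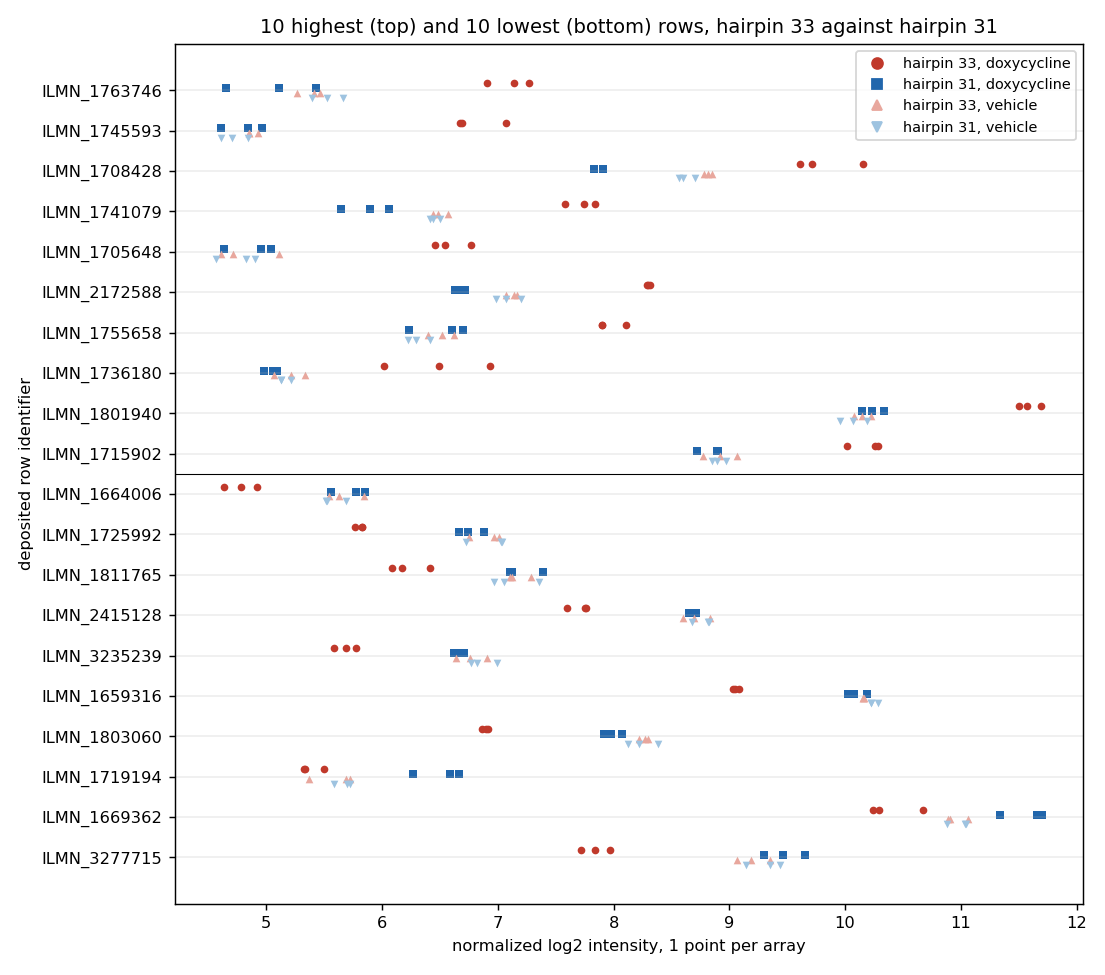
Normalized log2 intensity (horizontal) of the 10 highest rows and the 10 lowest rows (vertical, by deposited identifier) on each array, with 1 point per array and 3 arrays per group. The rows were chosen so that the hairpin 33 and hairpin 31 doxycycline arrays do not overlap. The largest gap between the vehicle group means of a row is 0.20.

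Some rows were above background with only one of the hairpins. On 3 of 3 hairpin 33 arrays and 0 of 3 hairpin 31 arrays, 97 rows were detected, and the reverse held for 73 rows. Those that were tested had entered only through the group in which they were brighter, so their calls are not read as support for a difference. The 627 called rows include 16 of the 97 and 12 of the 73. Together the 97 and the 73 were 170 of the 48107 rows (0.353%). The same pattern between the vehicle groups was found in 133 rows (0.276%), 54 detected only in the hairpin 33 line and 79 only in the hairpin 31 line. At a detection p under 0.01 the counts with doxycycline were 45 and 60, so the direction of the imbalance turned with the threshold.

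The largest of these rows among those called was ILMN_3234756, which also counts among the 28 rows at 2-fold. It read 122.7, 159.1 and 146.2 unnormalized units with hairpin 33, against 85.7, 108.9 and 100.5 units with hairpin 31, so the groups did not overlap. Against the lowest signal of a detected row, it was at least 2.43-fold higher with hairpin 33 after background removal. This bound is a description that depends on that step, and the authors' value table, which keeps the background, gave a log2 difference of 0.51. The next 4 rows in that direction had lower bounds of 1.40-fold to 1.49-fold. The 5 largest rows undetected with hairpin 33 had bounds of 1.25-fold to 1.38-fold.

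Uninduced, the lines were close to each other. Between the vehicle arrays of the hairpin 33 line and those of the hairpin 31 line, limma called 1 of the same 20137 rows (0.00497%), and 746 rows (3.7%) had an unadjusted p under 0.05. Arrays without overlap were seen in 2077 rows (10.3%). The standard deviation of the log2 differences over rows was 0.21 with doxycycline and 0.128 with vehicle. Pairs of arrays, one from each line, correlated at 0.9864 to 0.9924 with doxycycline and at 0.9929 to 0.9956 with vehicle. Pairs within a group correlated at 0.9908 to 0.9936 (hairpin 33) and 0.9913 to 0.9939 (hairpin 31) with doxycycline. With vehicle these were 0.9943 to 0.9957 (hairpin 33) and 0.9937 to 0.9946 (hairpin 31). Spread within groups was also somewhat larger with doxycycline, with a median row SD of 0.14 (hairpin 33) and 0.138 (hairpin 31), against 0.115 (hairpin 33) and 0.125 (hairpin 31) with vehicle. The fit shared 1 estimate of the spread over all groups, which favours calls between the doxycycline groups over calls between the vehicle groups. The fit of the doxycycline arrays alone, given above, called fewer rows, but it also had fewer arrays to estimate the spread. The part of that spread in the calls was not tested, and treatment cannot be told apart from position on the chip.

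The 627 rows were then read in the vehicle arrays, which entered the calls through the joint normalization and the shared estimate of the spread. Their median absolute difference between the lines was 0.543 with doxycycline and 0.0805 with vehicle, the vehicle value being the same as that of all tested rows, 0.0805. None of the 627 was called with vehicle by limma. At an unadjusted p under 0.05 there were 26 (4.15%), against 3.7% of all tested rows. The largest vehicle difference among the 627 was 0.401. Because the rows were selected for their doxycycline difference, its excess over the vehicle difference was largely fixed by the selection. Direction was shared in 369 rows (58.9%), against 54.1% of all tested rows, and differences with doxycycline and with vehicle correlated at Pearson r = 0.202 and Spearman 0.175 over the 627 rows. That correlation is a description across rows, measured on 1 chip and normalized together. Of the 28 rows at 2-fold, 22 had the same sign with vehicle, and none exceeded 0.254 there.

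**Figure D3:**
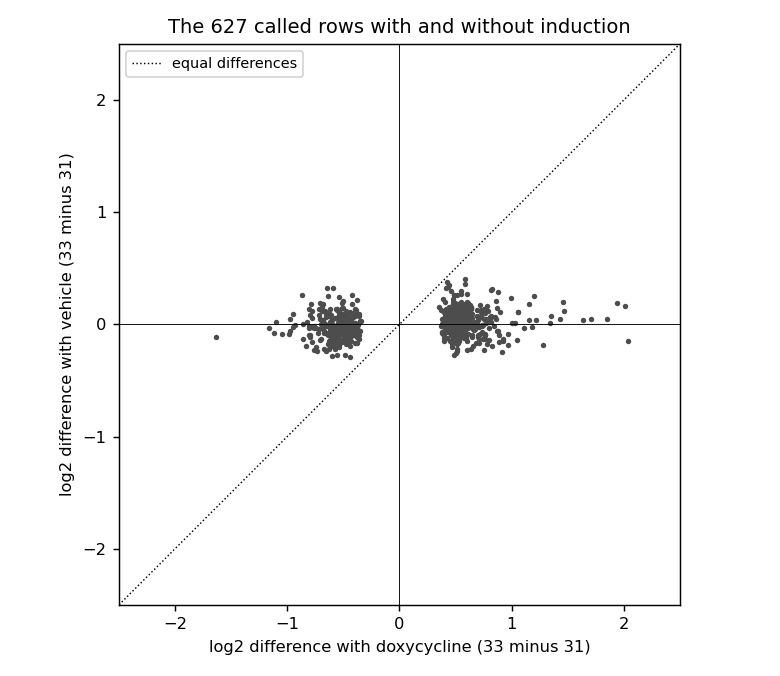
Log2 difference between the hairpin 33 line and the hairpin 31 line with doxycycline (horizontal) and with vehicle (vertical) for the 627 called rows, 1 point per row; the dotted line marks equal differences. Vehicle differences stay within 0.401 of 0 while doxycycline differences run from -1.63 to 2.04.

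The row called with vehicle behaved otherwise. ILMN_3291614 averaged 8.52 ± 0.14 in the hairpin 33 line and 7.54 ± 0.10 in the hairpin 31 line with vehicle (SD, n = 3 each), a difference of 0.98 (SE 0.11, limma adjusted p = 0.00586). With doxycycline it averaged 8.54 ± 0.13 with hairpin 33 and 8.68 ± 0.15 with hairpin 31, and the difference of -0.14 (limma adjusted p = 0.571) did not pass. Its vehicle call was lost without replicate 2 or 3 of the hairpin 33 vehicle arrays or replicate 1 or 3 of the hairpin 31 vehicle arrays, at limma adjusted p from 0.0564 to 0.0778, and under median centring, at 0.179.

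Whether the difference between the lines changed with induction was tested directly, as the doxycycline effect in the hairpin 33 line minus that in the hairpin 31 line. A call can mean that the difference became wider or narrower, as it became narrower for ILMN_3291614. This interaction called 73 rows (0.363%), 47 (0.233%) more positive with hairpin 33 and 26 (0.129%) more negative, and 1971 rows (9.79%) had an unadjusted p under 0.05. It carries the error of 4 groups in place of 2, with a median standard error of 0.173 against 0.122. The count was 46 and 41 without replicate 2 or 3 of the hairpin 33 vehicle arrays and 47 without replicate 3 of the hairpin 31 vehicle arrays. It was 14 under median centring, 13 more positive and 1 more negative, and 170 in the authors' value table. All 20 rows named above passed it, with limma adjusted p from 4.84e-05 for ILMN_2172588 to 0.0173 for ILMN_1811765. Under median centring 9 of the 10 higher rows and 1 of the 10 lower rows, ILMN_3277715, still passed, while all 20 kept their direction. Without replicate 2 of the hairpin 33 vehicle arrays 7 of the 10 lower rows passed. This interaction shares the doxycycline arrays with the comparison that chose the rows, so it is not independent of it.

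Within each line, the effect of doxycycline against vehicle reached the threshold in more rows of the hairpin 33 line, with 569 rows called (2.83%) and 132 in the hairpin 31 line (0.656%). In the hairpin 33 line 249 (1.24%) rose and 320 (1.59%) fell, and in the hairpin 31 line 22 (0.109%) rose and 110 (0.546%) fell. Under median centring, which shifted the median effect over all rows to -0.107 in the hairpin 33 line and -0.133 in the hairpin 31 line, 39 rose and 143 fell in the hairpin 33 line, and 3 rose and 93 fell in the hairpin 31 line. Without replicate 3 of the induced hairpin 33 arrays, or replicates 1, 2 or 3 of its vehicle arrays, the hairpin 33 count was 357, 336, 309 and 310. Without replicate 2 or 3 of its vehicle arrays, the hairpin 31 count was 81 and 80. Whether the lines differ in the number of rows that changed was not tested beyond the interaction above. In both lines an effect of doxycycline cannot be told apart from one of position on the chip. These comparisons share arrays with the one between hairpins, and their values are therefore set side by side for the named rows without counting an overlap. For ILMN_1745593 the effect was 1.93 in the hairpin 33 line (limma adjusted p = 4.18e-07) and 0.09 in the hairpin 31 line (0.875). For ILMN_1801940 it was 1.44 (6.36e-07) and 0.17 (0.642), and for ILMN_1715902 1.27 (4.87e-06) and -0.07 (0.899). In these rows the hairpin 31 line stayed near its vehicle level while the hairpin 33 line rose. Falls of this kind were measured too. For ILMN_3277715 the effect was -1.36 in the hairpin 33 line (7.69e-06) and 0.16 in the hairpin 31 line (0.73), and for ILMN_1659316 it was -1.10 (1.82e-06) and -0.15 (0.631).

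Other rows moved in opposite directions in the lines. ILMN_1708428 rose by 1.01 in the hairpin 33 line (limma adjusted p = 0.000163) and fell by 0.74 in the hairpin 31 line (0.00571). ILMN_1741079 rose by 1.23 (1.12e-05) in the hairpin 33 line and fell by 0.58 (0.0223) in the hairpin 31 line. ILMN_2172588 rose by 1.18 (1.52e-06) in the hairpin 33 line and fell by 0.42 (0.0485) in the hairpin 31 line. The vehicle levels of each of these rows were alike, with differences of 0.19, 0.05 and 0.04 between the lines.

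A few rows fell in both lines, or moved in the hairpin 31 line by more than in the hairpin 33 line. ILMN_1737586, at 1.22 between induced hairpins, had fallen by 0.69 in the hairpin 33 line (limma adjusted p = 0.00263) and by 1.87 in the hairpin 31 line (2.46e-07). ILMN_1806256, at 1.15, had fallen by 0.63 (0.00566) and by 1.75 (5.80e-07). Both were therefore higher with hairpin 33 although both had decreased on induction. ILMN_1733421, at 1.06, had an effect of 0.02 in the hairpin 33 line (0.953) and -0.93 in the hairpin 31 line (0.000137). ILMN_1719194 was among the lowest rows and rose in the hairpin 31 line, by 0.83 (0.00262), with -0.21 in the hairpin 33 line (0.449). Of these, ILMN_1737586, ILMN_1806256 and ILMN_1733421 were picked after their values were seen.

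**Figure D4:**
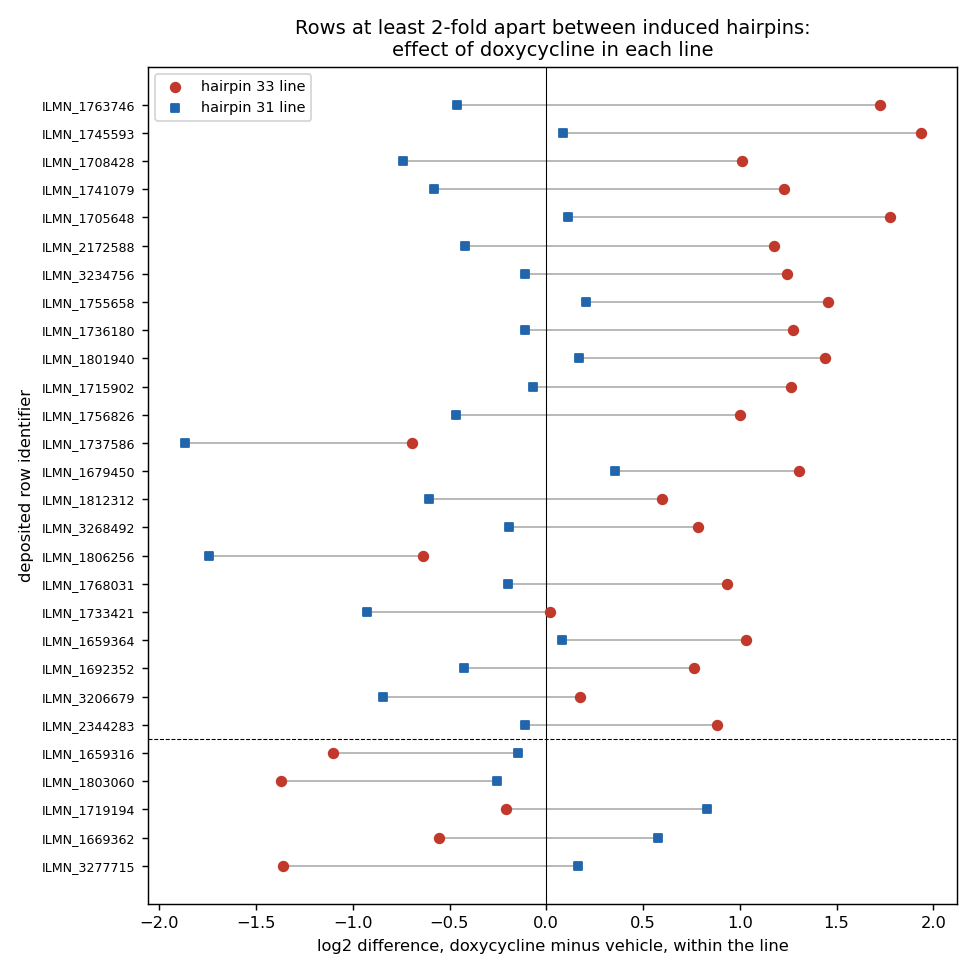
Effect of doxycycline (log2, doxycycline minus vehicle) within the hairpin 33 line (circles) and within the hairpin 31 line (squares) for the 28 rows at least 2-fold apart between induced hairpins, the 23 higher rows above the dashed line and the 5 lower rows below it. Effects in the hairpin 33 line reach 1.93 and -1.37, those in the hairpin 31 line 0.83 and -1.87.

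Some rows changed strongly in the same direction in both lines. The 6 with the largest mean effect of doxycycline were chosen after their values were seen, and 2 of them were called between induced hairpins. ILMN_1773758 averaged 6.13 ± 0.15 with induced hairpin 33 and 6.18 ± 0.05 with induced hairpin 31 (SD, n = 3 each), below vehicle levels of 8.38 ± 0.07 (hairpin 33 line) and 8.39 ± 0.12 (hairpin 31 line). The difference between induced hairpins was -0.04, with a 95% interval of -0.26 to 0.18 (limma adjusted p = 0.886). ILMN_1708304 averaged 7.06 ± 0.32 with induced hairpin 33 and 6.93 ± 0.07 with induced hairpin 31, above vehicle levels near background. Its difference between induced hairpins was 0.13 (-0.17 to 0.42, limma adjusted p = 0.697). ILMN_1804611 averaged 6.59 ± 0.22 with induced hairpin 33 and 6.24 ± 0.16 with induced hairpin 31, below vehicle levels of 9.03 ± 0.21 (hairpin 33 line) and 9.10 ± 0.06 (hairpin 31 line). Here the difference was 0.34 (limma adjusted p = 0.189), and its unadjusted 95% interval, 0.06 to 0.63, left out 0. ILMN_1758983 fell in both lines as well and differed by 0.38 between induced hairpins (0.10 to 0.67, limma adjusted p = 0.147). The intervals of these 4 rows leave out a 2-fold difference, and they do not show that the hairpins acted alike. The called rows were ILMN_2284591, at 0.58 (limma adjusted p = 0.0318), and ILMN_1660097, at -0.76 (limma adjusted p = 0.00882), and both had fallen in each line.

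At the threshold itself, the 3 called rows of highest adjusted p were ILMN_3191746, ILMN_3204346 and ILMN_3270637, with differences of -0.56, 0.45 and -0.37. The 3 rows next outside it were ILMN_1790943, ILMN_1722032 and ILMN_2266334, with -0.37, -0.53 and -0.44, so rows on either side were of like size.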

How the data were processed

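Total RNA of 12 samples was read on Illumina expression arrays, per the labels' protocols. For each of 48107 rows and 12 arrays the authors deposited an unnormalized linear bead intensity with its detection p-value, per the file headers. The authors' deposited log2 value table equalled the quantile-normalized log2 of those intensities (largest difference 5.08e-09), with 12 missing values, set to the array's lowest value where that table was fitted. The scanner software is not stated in the labels or headers. The platform annotation, with a symbol for 30113 rows, was used only to check labels.

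Background was removed with the detection p-values, an offset of 16 was added and arrays were quantile-normalized (neqc, limma 3.58.1, R 4.3.3). The model (lmFit, eBayes) had 4 group means, used all 12 arrays and shared 1 estimate of the spread, and p-values were adjusted by Benjamini-Hochberg over 20137 rows. The offset makes the folds of dim rows too small. A bound sets the brighter group's mean against the lowest signal of detected rows on the dim arrays. No pair of arrays held identical values. Named rows were the 10 highest and 10 lowest called rows without overlap and detected with each hairpin, up to 5 bounded rows in each direction, up to 5 rows called with vehicle, 3 rows on either side of the threshold, and the rows labelled MELK; others are marked as picked later. Members and rules were chosen with earlier results of these data known. Alternatives covered background, normalization, filter, variance trend, array weights, replicate block and each array left out. The number of arrays limits the precision.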

Additional observations from a re-analysis of the deposited data

Results flagged for a closer look

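The effect of doxycycline differed between the lines in 73 rows by the interaction test in limma. Among them were the 20 rows named for their difference between induced hairpins. That difference is part of the interaction, so large interactions in these rows were largely fixed by the choice. Under median centring 14 rows passed, among them 9 of the 10 higher and 1 of the 10 lower named rows. The interaction, as the effect in the hairpin 33 line minus that in the hairpin 31 line on the log2 scale, was 2.19 for ILMN_1763746, 1.85 for ILMN_1745593, 1.75 for ILMN_1708428, 1.81 for ILMN_1741079 and 1.66 for ILMN_1705648. For ILMN_2172588 it was 1.60, for ILMN_1755658 1.25, for ILMN_1736180 1.38, for ILMN_1801940 1.27 and for ILMN_1715902 1.33. Among the lower rows it was -1.52 for ILMN_3277715, -1.13 for ILMN_1669362, -1.04 for ILMN_1719194, -1.12 for ILMN_1803060 and -0.96 for ILMN_1659316. For ILMN_3235239 it was -0.89, for ILMN_2415128 -0.92, for ILMN_1811765 -1.03, for ILMN_1725992 -0.93 and for ILMN_1664006 -1.04. The row called between the vehicle groups, ILMN_3291614, had an interaction of -1.12 (limma adjusted p = 0.0037). Groups of 3 arrays were not tested for outlying samples.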

How the results depend on the processing

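Of the 20 rows named between induced hairpins and the row called with vehicle, 451 of 457 values over all alternatives kept direction and side of the threshold, 6 lost the call and 0 reversed. The rows were chosen for their size, and several alternatives left their log2 differences unchanged. This tally was therefore largely fixed in advance. The count between induced hairpins (627) was 916 in the authors' value table, 933 with an offset of 50, 899 with an intensity trend and 728 over rows detected on all 6 doxycycline arrays. It was 521 without a detection filter and 522 with array weights. It fell to 107 with median centring, 243 with the 6 doxycycline arrays alone and 305 with those arrays and the replicate block, and ran from 332 to 587 without 1 array. Deviations of same-numbered arrays correlated at 0.115, 0.116 and -0.00362 between induced hairpins, at -0.24, -0.0517 and -0.133 between the vehicle groups, at 0.258, 0.0855 and 0.0972 within the hairpin 33 line and at -0.203, -0.164 and 0.0578 within the hairpin 31 line. Differently numbered arrays correlated at up to 0.104 between induced hairpins and 0.242 between the vehicle groups. Within the lines they reached 0.0709 (hairpin 33) and 0.287 (hairpin 31). All 3 same-numbered values thus stood above the others within the hairpin 33 line alone. The numbers were not taken as pairs in the main fit, and these correlations do not exclude a pairing within the hairpin 33 line. The replicate block in the 12-array fit gave 485 rows between hairpins, 60 for the interaction, 444 within the hairpin 33 line and 109 within the hairpin 31 line, 28 at 2-fold and 1 with vehicle. The 2-fold count (28) was 8 in the authors' value table and 13 with an offset of 50, and 28 to 34 without 1 array. The interaction count (73) was 170 in the value table, 170 with an offset of 50, 14 with median centring and 150 with an intensity trend, and 41 to 73 without 1 array. The vehicle count (1) was 0 with median centring and 0 to 1 without 1 array. Within the hairpin 33 line (569) it was 915 in the value table, 892 with an offset of 50 and 182 with median centring, and 309 to 606 without 1 array, the lowest without hairpin 33 vehicle replicate 2. Within the hairpin 31 line (132) it was 207 in the value table and 205 with an offset of 50, and 80 to 138 without 1 array, the lowest without hairpin 31 vehicle replicate 3. At a detection p under 0.01, rows detected only with induced hairpin 33 numbered 45 (97 at 0.05), and the difference in detected rows per array reversed from 60.67 to -191.7. Median centring shifted the median difference over rows by 0.0742 between induced hairpins, and by -0.114 within the hairpin 33 line and -0.141 within the hairpin 31 line; the causes were not tested. Signal close to background limits the size of differences in dim rows.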
